A study of Mus musculus with 12 samples.

Results

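The response of B16F10 melanoma cells to SX-682 was taken from 4 of the 12 RNA-seq libraries of the study, 2 of B16F10 cells without treatment and 2 of B16F10 cells with SX-682. The libraries were chosen by their labels, and every gene was considered, 34513 in the deposited table, of which 18338 passed edgeR's expression filter and were tested. The other 8 libraries were from untreated and SX-682-treated cultures of B16F0, the parental mouse melanoma line, and Melan-A, a non-tumorigenic line of mouse melanocytes. They entered the fit and served as comparison. The labels call the controls untreated, and the dose, exposure time and vehicle of SX-682 in these cultures are not given in the sources used here. B16F10 is 1 established line, and the labels do not say that replicates were separate cultures, so that p-values measure the spread between these libraries, which may be technical.

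SX-682 is a small-molecule inhibitor of CXCR1 and CXCR2, the receptors of the ELR chemokines such as CXCL1, which recruit neutrophils and can also act on tumor cells that carry the receptors. B16F10 was selected from B16 melanoma for growth in the lung and is a standard metastatic, pigmented melanoma model. Cells short of amino acids or under protein-folding stress shut down general translation through phosphorylation of eIF2α, while the mRNA of the transcription factor ATF4 is translated. ATF4 and its target CHOP (Ddit3) then raise genes for amino acid uptake, amino acid synthesis and tRNA charging, a program called the integrated stress response. Pigment genes of melanocytes are controlled by MITF, and genes of DNA replication by E2F factors.

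Between 62217574 and 68414002 reads per B16F10 library were counted on genes, and each library was closest to its own replicate among all 12. Levels are given as CPM, the counts of a gene scaled to a common library size with TMM factors, in the order of the first and second library of a group. A floor of 3 counts in a library lay between 0.0469 and 0.0513 CPM, and covers counting error only. The cell type was checked against marker genes. All lines of the study are melanocytic, so these markers do not tell B16F10 from B16F0 or Melan-A. All 10 markers of the melanocytic lineage were present, with a summed level of 25300 and 25200 CPM in the untreated libraries and 15300 and 15600 CPM with SX-682. Leukocyte markers summed to 27.1 and 26.0 CPM and to 24.7 and 25.5 CPM with SX-682, nearly all of it Cd68, and Cd3e, Itgam and Ly6g had 0 counts. Endothelial markers summed to 53.8 and 54.3 CPM and to 61.8 and 59.2 CPM, nearly all of it Vwf, while Cdh5, Kdr, Emcn and Erg had 0 counts. Epithelial markers reached at most 1.24 CPM in sum, with Epcam, Krt8, Krt18, Krt1 and Krt10 at 0, and fibroblast markers between 8.43 and 9.72 CPM, with Lum, Thy1 and Fap at 0. In the edgeR test of SX-682 against untreated cells, the calls were 10 lowered of 10 melanocytic markers, 0 of 5 leukocyte markers, 0 of 6 epithelial markers, 2 raised of 4 endothelial markers (Vwf at 1.12-fold and Pecam1 at 3 and 0 and then 5 and 10 counts) and 2 raised and 1 lowered of 6 fibroblast markers (Col1a1 and Col3a1, and Col1a2). Apart from those of Col1a1 and the melanocytic markers, each of these calls was lost when 1 library was left out, such as Vwf without the first SX-682 library (adjusted p = 0.12, edgeR), Pecam1 without the second untreated (0.30) or the second SX-682 library (0.27), Col3a1 without the same libraries (0.097 and 0.10) and Col1a2 without any but the first untreated library (0.063 to 0.22). The strand setting of the counting is not given in the sources used here, so reads of genes that overlap on opposite strands cannot be told apart. Among genes named below, such an overlap covers between 10.4% and 30.2% of the exonic bases of Angptl6, Bak1, Ccn2, Ccne2, Cd274, Cd276, Cdc25c, Clk3, Gadd45a, Gm16010, Hmgcs1, Pcbp2, Sqstm1, Srsf2, Timp3 and Ubp1, and same-strand neighbors share 26.2% of Tuba1a and 14.7% of Hnrnpm.

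About as many genes were called raised as lowered in B16F10 cells with SX-682, and most changes were small. By edgeR's quasi-likelihood test at an adjusted p under 0.05, 4681 genes (25.5% of those tested) were raised and 4640 (25.3%) were lowered. TMM scaling centers the fold changes, so this balance is partly set by the scaling, and a shift of all RNA together cannot be seen. Upper-quartile scaling gave 5079 raised and 4267 lowered genes. The median size of a called change was 0.431 on the log2 scale, and 5377 of the 9321 called genes (57.7%) changed by less than 0.5. At least a 2-fold change was reached by 872 raised and 628 lowered genes, and at least a 4-fold change by 320 and 188. Among called genes, the SX-682 libraries lay beyond both untreated libraries in all but 25 of the raised and 13 of the lowered genes. A call by this test nearly requires such a gap, so the count adds no support to the calls. The share over all genes tested is not given here. The median log2 fold change over the 16676 tested genes above the floor was 0.0123, against which the gene lists below can be read. Most list members are protein-coding, and of the 13202 protein-coding genes tested above the floor, 32.0% were raised and 32.9% lowered. The count of each list below is to be read beside these shares. They also depend on level. In the highest of 5 bins of these genes by mean CPM, 36.2% were raised and 47.1% lowered. In the lowest bin, 15.1% were raised and 10.1% lowered. A list of abundant genes can therefore exceed the shares over all genes by its level alone. An exact permutation test of 2 libraries against 2 cannot give a p under 0.333, so each call relies on a spread estimated over all genes and all 6 groups together, which was narrow (biological coefficient of variation 2.78%). As the RNA is bulk, fewer cells of a kind and less RNA per cell cannot be told apart.

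**Figure D1:**
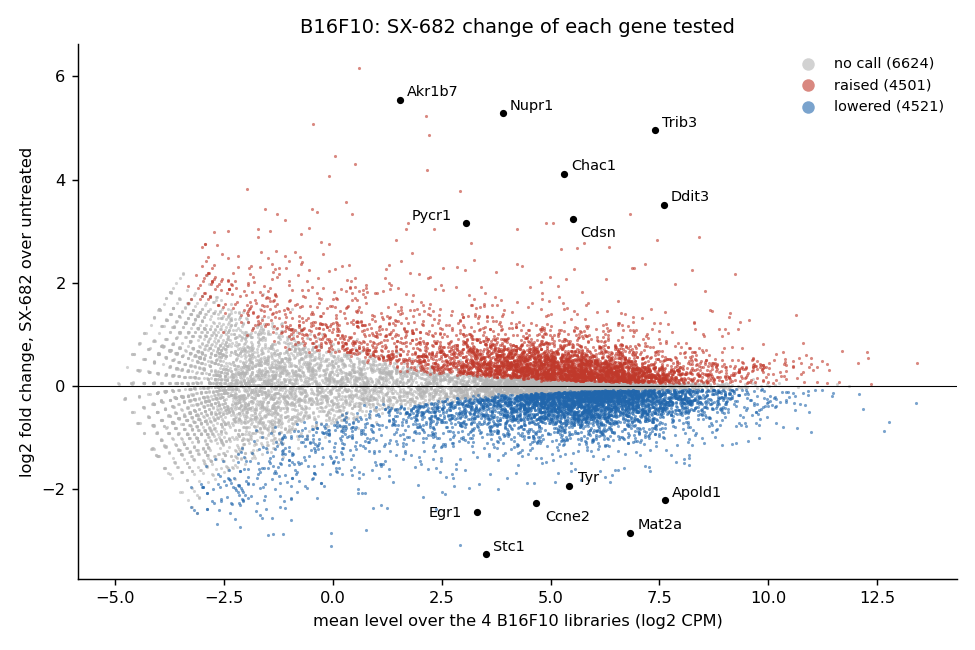
Log2 fold change of SX-682 over untreated B16F10 cells (vertical) against the mean level over the 4 libraries in log2 CPM (horizontal) for the 15646 genes tested with both groups over the floor. Red points are the 4501 genes of these that were raised, blue points the 4521 that were lowered and grey points the 6624 without a call; black points are named genes, and the highest of them, Akr1b7, Nupr1 and Trib3, lie near or above a log2 fold change of 5.

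The largest rises among genes with a mean log2 CPM of at least 1 included genes of the stress response and several with other roles. Trib3, a pseudokinase that is a target and feedback inhibitor of the ATF4 pathway, was at 11.1 and 9.93 CPM in the untreated libraries and at 325 and 326 CPM with SX-682, 31.0-fold higher (log2 fold change 4.95 ± 0.04 SE, adjusted p = 1.4e-35). Nupr1, a stress-induced chromatin protein, went from 0.744 and 0.751 CPM to 26.9 and 31.4 CPM, 38.9-fold (5.28 ± 0.12). Chac1, which degrades glutathione, went from 4.10 and 4.6 CPM to 75.6 and 74.9 CPM, 17.3-fold (4.11 ± 0.06). For all 3 genes the SX-682 values lay beyond both untreated values, which the rule that chose them required, and the replicates were close to each other. Trib3 lies at chr2:152337422-152344032, Chac1 at chr2:119351229-119354381 and Nupr1 at chr7:126623249-126630861 of GRCm38, as protein-coding genes.

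Akr1b7, an aldo-keto reductase, had the largest fold change of this group. It was at 0.149 and 0.0939 CPM, 9 and 6 reads, in the untreated libraries and at 5.61 and 5.78 CPM with SX-682, 46.5-fold higher (5.54 ± 0.28). Its family holds near-identical copies and 27.2% of its exonic bases overlap a gene on the other strand, so the assignment of its reads is uncertain. Rgs9bp, which anchors RGS9 in photoreceptors, rose from 0.232 and 0.375 CPM to 8.33 and 9.57 CPM. Angptl6, a secreted angiopoietin-like factor, rose from 0.910 and 1.14 CPM to 13.8 and 14.5 CPM. Rln1, a relaxin hormone, rose from 0.496 and 0.438 CPM to 8.33 and 8.69 CPM. Among more abundant genes, Arrdc3, an arrestin-like adaptor that brings down receptors, rose 10-fold from 21.3 and 20 CPM to 209 and 204 CPM. Cdsn, the corneodesmosome protein of skin, rose 9.46-fold from 8.58 and 8.93 CPM to 84.1 and 81.7 CPM. The pseudogene Gm13464 also passed the test, but 1 library carried the call: its counts were 16 and 12 untreated and 20 and 983 with SX-682, and without the second SX-682 library the log2 fold change was 0.55 (adjusted p = 0.65, edgeR).

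Among the largest falls were a hormone, a metabolic enzyme and several signaling genes. Stc1, the secreted glycoprotein stanniocalcin, fell from 21.2 and 20.1 CPM to 2.03 and 2.27 CPM, 9.58-fold (log2 fold change -3.26 ± 0.13, adjusted p = 1.4e-18). Apold1, an apolipoprotein L domain protein known from endothelium, fell 4.62-fold from 321 and 328 CPM to 69.3 and 71.2 CPM. Col4a3, a basement membrane collagen chain, fell from 3.64 and 3.50 CPM to 0.759 and 0.684 CPM. Hs3st1, which sulfates heparan sulfate, fell from 9.38 and 9.90 CPM to 2.03 and 2.53 CPM, and Rgs2, an inhibitor of G-protein signaling, from 9.59 and 8.68 CPM to 2.11 and 2.33 CPM. The groups did not overlap in these genes, which the rule that chose them required. The further genes Gm13394, Gm6056 and Gm16010 are pseudogenes or unnamed loci, and the call of Gm13394 was lost under DESeq2.

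**Figure D2:**
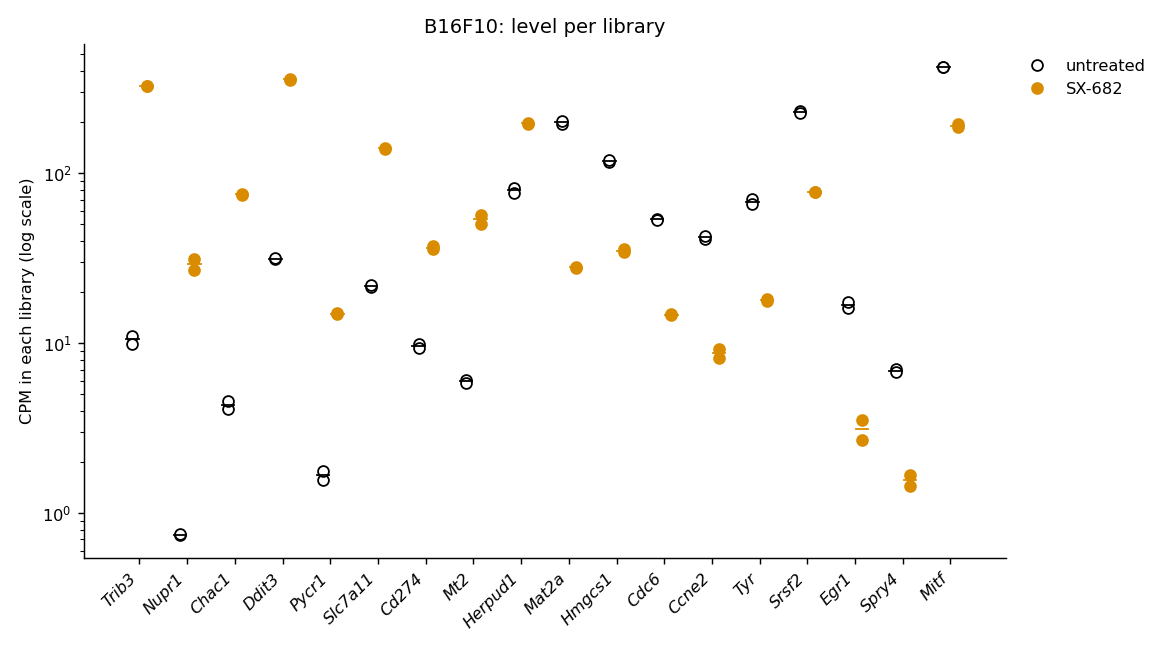
CPM in each B16F10 library (vertical, log scale) for 18 named genes (horizontal). Open circles are the 2 untreated libraries and filled circles the 2 SX-682 libraries, with a line at the mean of each pair. In each of the 18 genes the pairs are apart, from Trib3 (9.93 to 11.1 against 325 to 326 CPM) to Mitf (420 against 186 to 194 CPM). All 18 genes were called, and a call nearly requires this gap.

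Of 20 stress factors and feedback genes of the ATF4 and CHOP pathway, 18 rose and 0 fell, with a median log2 fold change of 1.73 over the 20, beside 25.5% raised over all genes tested. Ddit3, the transcription factor CHOP, rose 11.3-fold, from 31.3 and 31.7 CPM to 353 and 361 CPM. The list's summed level went from 1200 and 1210 CPM to 3830 and 3860 CPM. Some promoters of these genes hold the composite of an ATF4 and a C/EBP half-site. The letters TGATGNAA were searched on both strands in the 250 bases before the RefSeq start of the gene (GRCm38.p6), for 11300 of 14328 protein-coding genes tested. The following stretches show a match in capitals with its flanks, on the strand of the gene, and were picked after the matches were seen, among raised genes whose RefSeq start lies close to that of the deposited table. Other raised genes with a match, such as Nupr1 and Asns, are not shown. Lowered genes with a match, such as Fen1 and Hnrnpa2b1, are not shown either.
Chac1 chr2:119351024-119351081 (+): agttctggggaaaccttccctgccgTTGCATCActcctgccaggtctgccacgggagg
Pycr1 chr11:120643819-120643876 (-): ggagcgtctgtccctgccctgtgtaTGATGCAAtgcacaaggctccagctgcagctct
Slc7a11 chr3:50443628-50443685 (-): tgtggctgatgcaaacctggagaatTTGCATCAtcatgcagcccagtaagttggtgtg
Pck2 chr14:55540138-55540195 (+): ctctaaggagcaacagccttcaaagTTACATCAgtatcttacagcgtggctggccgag
Herpud1 chr8:94386292-94386349 (+): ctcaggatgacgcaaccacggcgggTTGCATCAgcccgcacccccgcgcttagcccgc
Gars chr6:55037946-55038000 (+): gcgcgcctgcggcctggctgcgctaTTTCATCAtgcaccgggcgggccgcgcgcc

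The match in Chac1, Slc7a11, Pck2, Herpud1 and Gars reads on the strand opposite to the gene, and the one in Pycr1 on the gene's own strand. Slc7a11 holds a second match, seen in lower case in the stretch above, and its matches end 39 and 58 bases before the start. These letters were found in 2.03% of the 11300 promoters, in 2.29% of those of raised genes, in 5.29% of genes raised at least 2-fold and in 9.68% of genes raised at least 4-fold. The share was 1.60% in lowered genes and 3.31% in genes lowered at least 2-fold. Of the stress factor list, 4 of 18 promoters (22.2%) held a match, a description of lists that were drawn up from known targets. No match in this window, as for Trib3 and Ddit3, says only that these letters are not in it.

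Genes of amino acid synthesis, uptake and tRNA charging moved with the stress factors, with exceptions within each list. Of 21 genes of serine, asparagine, proline and one-carbon synthesis, 12 rose and 7 fell (median log2 fold change 0.74). Pycr1, which makes proline in mitochondria, went from 1.57 and 1.78 CPM to 14.9 and 15 CPM, 8.89-fold higher (3.15 ± 0.11, adjusted p = 2.2e-20). Cth, which makes cysteine from cystathionine, rose 5.38-fold and Pck2, the mitochondrial PEP carboxykinase, 5.17-fold. Shmt1, the cytosolic serine hydroxymethyltransferase, fell from 29.6 and 28.6 CPM to 16 and 15.2 CPM.

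Among 22 amino acid transporters, 11 rose and 5 fell. Slc7a11, the cystine importer, rose from 21.4 and 22 CPM to 141 and 139 CPM, 6.45-fold, and its partner chain Slc3a2 from 218 and 217 CPM to 971 and 990 CPM, 4.51-fold. Slc1a4, a carrier of neutral amino acids, rose 6.41-fold. The lowered genes included Slc38a2, a glutamine carrier that is itself a known ATF4 target, at 212 and 219 CPM untreated and 130 and 127 CPM with SX-682. They also included Slc36a1, a lysosomal and plasma membrane carrier of small amino acids, which fell 2.17-fold, and Slc7a6, a carrier of basic amino acids, which fell 1.75-fold. Of 20 cytosolic aminoacyl-tRNA synthetases, 16 rose and 2 fell (median 0.64). The highest were Eprs at 2.43-fold (445 and 443 CPM to 1080 CPM in both libraries), Cars at 2.35-fold and Gars at 2.15-fold. Rars and Hars were the lowered members, at log2 fold changes of -0.18 and -0.10. The call of Hars was lost without the second untreated library (adjusted p = 0.051, edgeR), without the first SX-682 library (0.076) and with upper-quartile scaling.

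Chaperones of the endoplasmic reticulum moved against the stress factors. Of 23 ER chaperones and genes of the unfolded protein response, 19 fell and 3 rose, with a median log2 fold change of -0.39, beside 25.3% lowered over all genes. Dnajc3, a co-chaperone that inhibits eIF2α kinases, fell from 236 and 238 CPM to 108 and 106 CPM, 2.22-fold (-1.15 ± 0.03, adjusted p = 7.4e-23). Calr, the lectin chaperone calreticulin, fell from 2070 CPM to 1180 CPM, and Manf, a secreted ER-stress factor, from 237 and 244 CPM to 137 and 139 CPM. The raised members were Herpud1, an adaptor of ER-associated degradation, at 82.4 and 76.2 CPM and then 198 and 196 CPM, and the stress sensors Atf6 (1.72-fold) and Ern1 (1.30-fold). Of 20 cytosolic heat shock genes, 11 fell and 4 rose. Hspa1b, an inducible HSP70, rose 8.90-fold from 6.88 and 6.54 CPM to 58.1 and 61.3 CPM, with the limit that its reads cannot be separated with certainty from those of the near-identical Hspa1a. Hspb1, the small HSP27, rose 2.96-fold. The co-chaperones Dnaja1, Hsph1 and Chordc1 fell 2.13-fold, 1.95-fold and 1.85-fold.

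Genes of sterol and fatty acid synthesis fell. Of 28 tested, 22 were lowered and 2 raised, and the median log2 fold change was -0.77. Hmgcs1, which makes HMG-CoA for the mevalonate pathway, fell from 117 and 119 CPM to 34.2 and 35.8 CPM, 3.38-fold (-1.76 ± 0.04, adjusted p = 4.2e-25). Elovl6, a fatty acid elongase, fell 3.64-fold from 128 and 129 CPM to 34.8 and 35.7 CPM. Insig1, a target and inhibitor of SREBP, fell 3.28-fold from 130 CPM in both libraries to 37.7 and 41.9 CPM. The raised genes were Abca1, the cholesterol exporter controlled by LXR, which rose 2.64-fold from 26.7 and 27.2 CPM to 70.8 and 71.3 CPM, and Srebf1, at 1.24-fold.

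In the methionine cycle, 7 of 17 genes fell and 4 rose. Mat2a, which makes S-adenosylmethionine, was among the largest falls of all, from 196 and 203 CPM to 27.8 and 28.1 CPM, 7.13-fold (-2.83 ± 0.04, adjusted p = 1.3e-30). Amd1, which uses S-adenosylmethionine for polyamines, fell 3.07-fold from 139 and 143 CPM to 45.4 and 46.1 CPM, and Mtap, of the methionine salvage pathway, fell 1.68-fold from 524 and 517 CPM to 309 and 310 CPM. An antisense gene covers 11.3% of the exonic bases of Mat2a. In all 3 genes both SX-682 values lay below both untreated values, a gap that a call nearly requires. Of the raised members, Ahcyl1 and Mri1 rose 1.43-fold and 1.40-fold.

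DNA replication genes fell nearly throughout, while genes of mitosis changed little. Of 30 replication and deoxynucleotide genes, 27 fell and 0 rose (median log2 fold change -0.61), and the highest value in the list was -0.01. Cdc6, which loads the MCM helicase at origins, fell from 53.8 and 53.4 CPM to 14.8 and 14.7 CPM, 3.63-fold (-1.86 ± 0.05, adjusted p = 2.0e-22). Rrm2, the regulated subunit of ribonucleotide reductase, fell 2.61-fold from 419 and 414 CPM to 156 and 163 CPM. Fen1, the flap endonuclease, fell from 19.3 and 18.1 CPM to 6.66 and 4.75 CPM, but 78.8% of its exonic bases overlap a gene on the other strand. Of 22 cyclins, kinases and inhibitors, 13 fell and 4 rose. Ccne2 and Ccne1, the cyclins E of the G1/S transition, fell 4.80-fold and 2.27-fold, and Cdc25a, the phosphatase that activates CDK2, 3.05-fold from 71.5 and 70.2 CPM to 22.5 and 23.9 CPM. Cdkn1b, the CDK inhibitor p27, rose 1.88-fold from 124 CPM in both libraries to 234 and 235 CPM, and Cdc25c, the phosphatase of mitotic entry, 1.76-fold from 19.8 and 19.3 CPM to 34 and 34.9 CPM.

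Of 25 genes of the spindle, kinetochore and cytokinesis, 13 fell and 4 rose, with a median of -0.09 and no value under -0.61 or over 0.30. Cdc20, the activator of the anaphase-promoting complex, rose from 104 CPM in both libraries to 126 and 129 CPM, and Tpx2, a spindle assembly factor, from 187 and 189 CPM to 210 and 205 CPM. Mad2l1, of the spindle checkpoint, fell from 218 and 221 CPM to 145 and 143 CPM. The same list responded otherwise in the other lines, where all 25 genes were lowered in B16F0 (median -0.35) and in Melan-A (median -0.75). The test of the difference found 21 of the 25 higher in B16F10 than in B16F0 and 25 higher than in Melan-A, and 0 lower, beside 15.3% higher than in B16F0 and 17.8% higher than in Melan-A over all genes.

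The E2F site was searched as TTTCCCGC or TTTGGCGC on both strands. It was in 2.39% of all promoters, in 2.17% of those of raised genes and in 3.35% of those of lowered genes. The raised genes Psmb9 and Tap1 hold it too. In genes lowered at least 2-fold the share was 4.52%, and 6 of 24 promoters of the replication list (25%) held the site. Replication genes are known E2F targets, so the share in that list is a description. The stretches of Cdc25a and Cdc6, with strong falls, and Mcm6, a helicase subunit chosen after its match was seen, are shown with the match in capitals on the gene's strand. The RefSeq start used for Cdc6 lies 350 bases from the start in the deposited table.
Cdc25a chr9:109875487-109875544 (+): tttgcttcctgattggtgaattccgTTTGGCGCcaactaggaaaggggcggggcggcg
Cdc6 chr11:98907988-98908045 (+): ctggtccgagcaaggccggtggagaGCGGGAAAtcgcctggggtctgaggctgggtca
Mcm6 chr1:128359720-128359777 (-): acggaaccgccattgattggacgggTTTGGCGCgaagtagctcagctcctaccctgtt

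Of 21 core and linker histone genes tested, 8 rose and 1 fell (median 0.45). H1f2, a linker histone, rose from 39.7 and 42.4 CPM to 197 and 202 CPM, 4.86-fold, and H1f3 3.97-fold from 0.943 and 1.02 CPM to 3.88 and 3.92 CPM. H2aw rose 5.40-fold, and 33.0% of its exonic bases are shared with a neighbor on the same strand. H3c1 was the lowered member, at 0.744 and 1.36 CPM untreated and 0.330 and 0.547 CPM with SX-682, and its call was lost under DESeq2, without the second untreated library (log2 fold change -0.77, adjusted p = 0.36, edgeR) and without the first SX-682 library (-0.95, 0.22). The histone cluster genes together took 0.0123% and 0.0125% of counts untreated and 0.0299% and 0.0306% with SX-682. The listed histones summed to 119 and 124 CPM untreated and to 322 and 330 CPM with SX-682. Much of this rise came from H1f2 alone, and 12 of the 21 genes tested had no call. Most histone mRNAs lack a poly(A) tail, and their share also moves with how RNA is selected, whose part was not tested.

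Splicing factors fell as groups. Of 19 SR proteins and CLK kinases, 12 fell and 6 rose, and of 20 hnRNP genes, 16 fell and 2 rose (medians -0.30 and -0.40). Srsf2 fell 2.96-fold from 233 and 227 CPM to 78.1 and 77.6 CPM (-1.56 ± 0.03, adjusted p = 1.0e-26), and Tra2a 2.13-fold from 162 and 163 CPM to 75.9 and 76.7 CPM. The CLK kinases, which phosphorylate SR proteins, went the other way: Clk1 rose 1.84-fold from 27.8 and 28.7 CPM to 50.1 and 53.7 CPM, Clk4 1.73-fold and Clk3 1.25-fold. Hnrnpa2b1, an abundant RNA-binding protein, fell from 1600 and 1680 CPM to 929 and 956 CPM, and Hnrnph1 and Hnrnpm both fell about 2-fold. Pcbp2 and Hnrnpl were raised, by 1.33-fold and 1.16-fold.

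Ribosomal protein genes rose while the genes that build ribosomes fell. Of 51 cytosolic ribosomal protein genes, 49 rose and 0 fell, by a median log2 fold change of 0.37. Rps14 went from 1350 CPM to 1960 and 1970 CPM (1.46-fold) and Rpl3 from 1100 and 1090 CPM to 1560 and 1580 CPM (1.43-fold). The 80 genes with a ribosomal protein name took 5.18% and 5.15% of counts untreated and 6.69% and 6.75% with SX-682. Ribosomal protein genes have many processed pseudogenes that can share their reads. Of 30 genes of ribosome biogenesis and RNA polymerase I, 23 fell and 3 rose (median -0.35). Nolc1, a nucleolar chaperone, fell 2.17-fold from 190 and 195 CPM to 87.5 and 90.5 CPM, Dkc1, the rRNA pseudouridine synthase, 2.04-fold, and Polr1b, a subunit of RNA polymerase I, 1.92-fold. In B16F0 the median of this list was -0.06, and 24 of the 30 genes were lower in their response in B16F10 than in B16F0, beside 14.9% of all genes. For the ribosomal proteins, 40 of 51 responses were higher and 1 lower than in B16F0, beside 15.3% higher over all genes.

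Nuclear genes of oxidative phosphorylation moved little, with 14 of 28 lowered and 4 raised (median -0.08), or 9 raised with upper-quartile scaling. Sdhd, the membrane anchor of succinate dehydrogenase, stood out with a 2.11-fold fall from 234 and 233 CPM to 109 and 112 CPM. Of the 13 mitochondrially encoded genes, 5 rose and 4 fell, shares near those of all protein-coding genes. Among them, mt-Co1, of cytochrome oxidase, rose 1.58-fold from 3840 and 3780 CPM to 6020 CPM in both libraries, while mt-Cytb fell 1.28-fold and mt-Nd5 1.30-fold. The median of these 13 genes was 0.13 in B16F10 and -0.90 in B16F0. In B16F10, 11 of the 13 were higher in their response than in B16F0, beside 15.3% of all genes. Glycolysis genes were split, with 8 of 21 raised and 11 lowered. Hk2, the hexokinase of tumor cells, fell from 187 and 188 CPM to 118 and 121 CPM, and Eno2, an enolase, rose from 129 and 131 CPM to 204 and 208 CPM. In Melan-A, 19 of these 21 genes were raised and 0 lowered, and 20 of the 21 responses were lower in B16F10 than in Melan-A, beside 16% of all genes. Of 18 hypoxia-inducible genes, 7 rose and 5 fell, shares near those of all protein-coding genes. Ndrg1, a stress-induced metastasis suppressor, rose 2.12-fold, and Vegfa, the angiogenic growth factor, 1.53-fold, while Ldha fell 1.27-fold. The hypoxia list had 14 of 18 responses lower and 1 higher than in Melan-A, beside 16% lower and 17.8% higher over all genes.

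**Figure D3:**
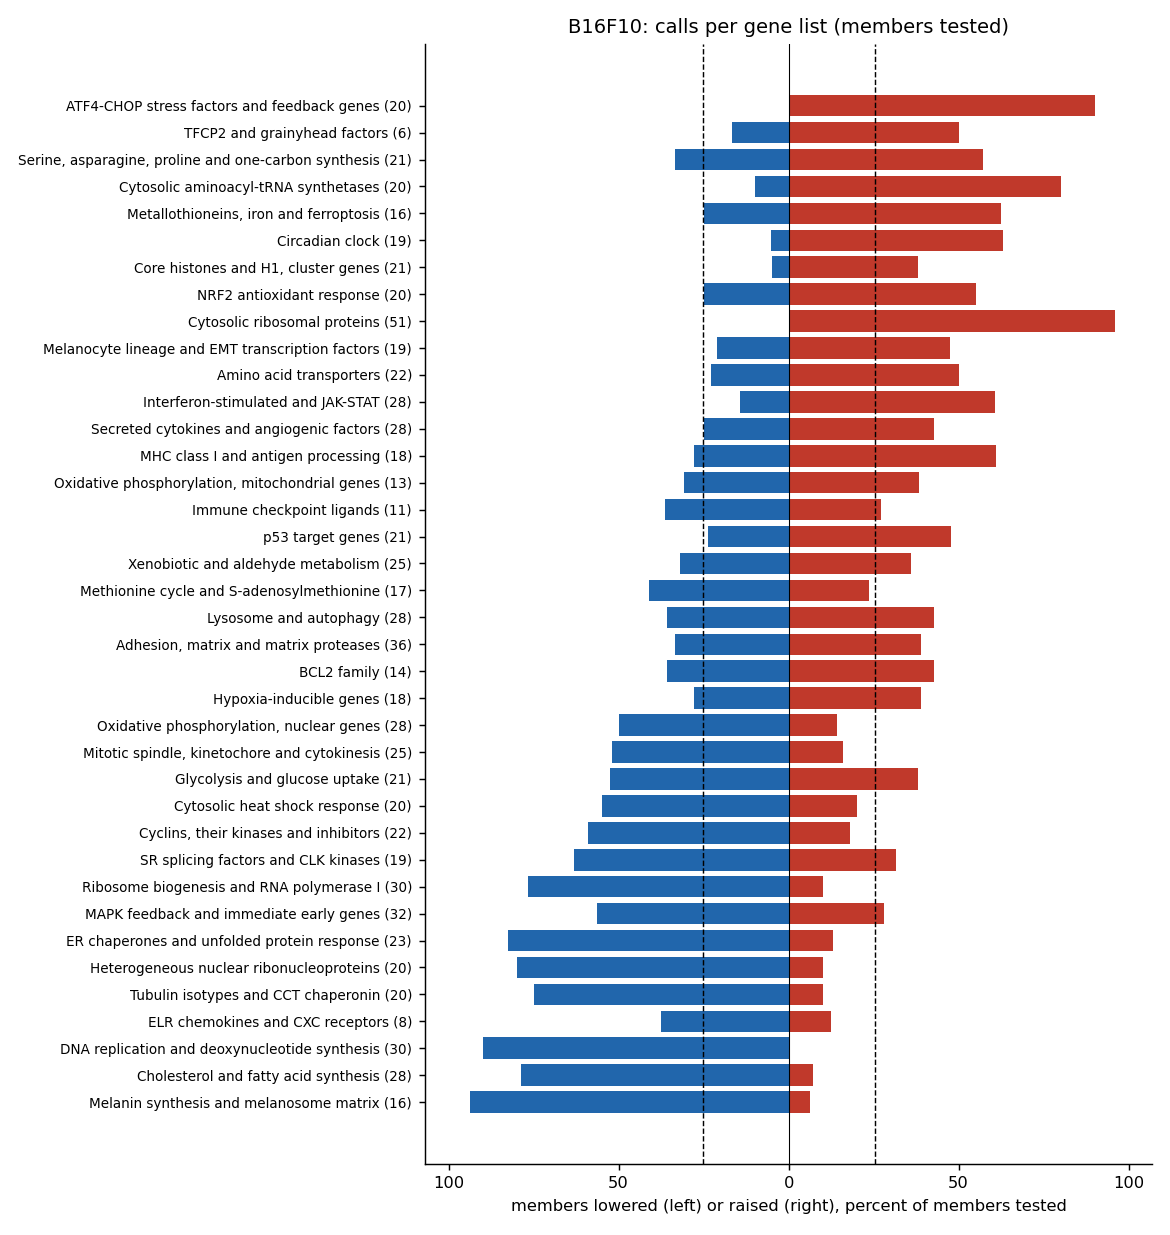
Percent of the tested members of each gene list that were raised (red, to the right) or lowered (blue, to the left) in B16F10 cells, with the number of members tested in parentheses and the lists ordered by median log2 fold change. Dashed lines mark the share over all genes tested, 25.5% raised and 25.3% lowered, which is not matched to the level of the members. The stress factors (18 of 20 raised) stand at the top and the melanin list (15 of 16 lowered) at the bottom.

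Pigment genes fell together. Of 16 genes of melanin synthesis and the melanosome, 15 fell and 1 rose (median log2 fold change -0.79). Tyr, tyrosinase, the rate-limiting enzyme of melanin synthesis, fell from 70.4 and 65.8 CPM to 18.3 and 17.6 CPM, 3.79-fold (-1.92 ± 0.05, adjusted p = 4.7e-24). Slc45a2, a melanosome transporter, fell 2.21-fold to 303 and 313 CPM, and Mlana, a melanosome protein, 2.10-fold from 1030 and 989 CPM to 472 and 490 CPM. The raised member was Slc7a11, which brings in cystine for red pigment. In RPKM, which divides CPM by exonic length and so allows genes to be compared, untreated cells had 2960 RPKM of Tyrp1 and 9.58 RPKM of Tyr, and SX-682 cells 1620 and 2.52 RPKM, so Tyr was the lower of these 2 melanin enzymes in both conditions. Mitf itself was at 420 CPM in both untreated libraries and at 186 and 194 CPM with SX-682, 2.21-fold lower (-1.14 ± 0.03). The fall of Mitf was smaller than in B16F0 (-2.11, adjusted p of the difference 4.9e-17). By contrast, 13 of the 16 melanin genes were lower in their response in B16F10 than in B16F0, beside 14.9% of all genes.

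The M-box bound by MITF was searched as TCATGTG on both strands. It was in 1.86% of all promoters and in 7 of the 11 promoters of the melanin list (63.6%), and in 1.79% of raised, 1.86% of lowered, 2.41% of at least 2-fold lowered and 3.87% of at least 4-fold raised genes. Pigment genes are known MITF targets, so the share in the melanin list is a description. The stretches below show it in capitals in pigment genes that fell; Tyrp1, Mc1r and Dct were chosen after their match was seen.
Tyr chr7:87493513-87493559 (-): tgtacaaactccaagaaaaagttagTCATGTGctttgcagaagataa
Tyrp1 chr4:80834141-80834197 (+): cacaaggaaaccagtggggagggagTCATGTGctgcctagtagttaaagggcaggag
Mc1r chr8:123407005-123407061 (+): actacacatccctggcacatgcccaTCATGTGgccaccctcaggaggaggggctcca
Dct chr14:118052366-118052422 (-): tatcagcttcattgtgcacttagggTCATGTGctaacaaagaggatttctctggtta
The raised Slc7a11 also holds these letters, at chr3:50443657-50443713: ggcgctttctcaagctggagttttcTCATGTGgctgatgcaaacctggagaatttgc. They stand just before the second ATF4 match of that promoter, which follows in lower case.

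Other motifs were searched in the same way. The CCAAT box of NF-Y was in 36.6% of all promoters, in 36.8% of raised and 38.0% of lowered genes, and in 18 of 20 promoters of the ER chaperone list (90.0%), 15 of 21 of the mitotic list (71.4%) and 16 of 24 of the replication list (66.7%), which had medians below 0. Lists with medians above 0 held it too, with 15 of 17 promoters of core histones (88.2%) and 12 of 16 of clock genes (75%). The heat shock element GAANNTTC was in 5.06% of all promoters and in 6 of 15 of the heat shock list (40.0%), and the E-box CACGTG in 8.17% of all and 5 of 16 of the clock list (31.2%), and most often in the lysosome and autophagy list (9 of 20, 45%). The shares over all promoters were 2.61% for the CRE letters TGACGTCA, 10.8% for the CHR letters TTTGAA and 11.8% for the NRF2 letters TGACNNNGC, and 2.87%, 10.3% and 12.5% in raised genes.

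**Figure D4:**
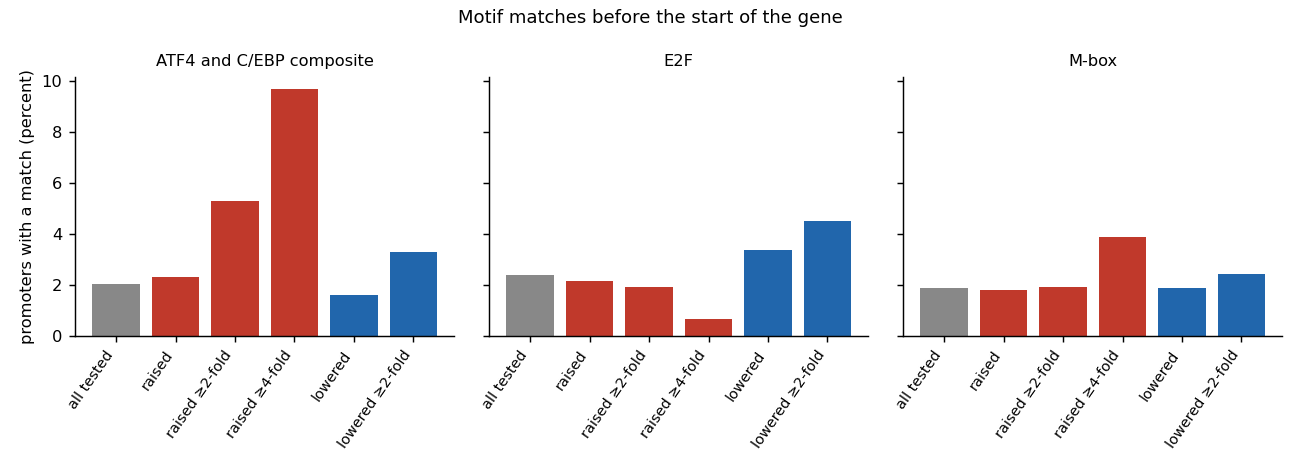
Percent of promoters, the 250 bases before the start of protein-coding genes, with a match to 3 motifs (panels), for all 11300 genes and for genes raised or lowered in B16F10 cells by any amount or by at least 2-fold or 4-fold. The share for the ATF4 and C/EBP composite is 2.03% over all genes and 9.68% in genes raised at least 4-fold; the E2F share is 2.39% over all genes and 4.52% in genes lowered at least 2-fold; the M-box share lies between 1.79% and 3.87% in every group.

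Of 19 transcription factors of the melanocyte lineage and of epithelial-mesenchymal transition, 9 rose and 4 fell. Snai2, the factor Slug, rose 2.20-fold from 18.3 and 16.8 CPM to 39.3 and 38.0 CPM. Sox9 rose 1.98-fold from 7.33 and 7.29 CPM to 13.6 and 15.4 CPM, while in B16F0 and Melan-A its log2 fold changes were 0.09 and 0.25 (adjusted p of the difference 0.00051 and 0.031). Tfap2a, which acts with MITF, rose 1.58-fold. Hmga2, a chromatin protein of stem-like cells, fell 2.22-fold from 103 and 105 CPM to 45.7 and 48.4 CPM, and its log2 fold change was -0.16 in B16F0. Of the 6 TFCP2 and grainyhead factors tested, 3 rose and 1 fell. Tfcp2l1, a pluripotency factor, had 0 and 1 counts untreated and 22 and 15 with SX-682, at least 6.44-fold higher against the floor of 3 counts per library. Tfcp2 rose 1.33-fold from 50.5 and 51.8 CPM to 70.0 and 65.7 CPM, and Ubp1, at 69.7 and 69.6 CPM and then 63.9 and 64.7 CPM, fell slightly, a call lost with upper-quartile scaling. Grhl3, a factor of epidermal differentiation, rose from 0.413 and 0.250 CPM to 0.610 and 0.821 CPM, a call lost without the second untreated library (log2 fold change 0.78, adjusted p = 0.20, edgeR) or the second SX-682 library (0.88, 0.14).

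The mRNA of the receptors that SX-682 blocks was hardly detected. Cxcr2 had 0 counts in all 4 libraries, and Cxcr1 had 1 count in 1 SX-682 library and 0 in the other libraries. Both stayed under the floor of 3 counts per library, and no fold change is given. These counts do not measure protein. The paper reports more Cxcr2 in B16F0 and B16F10 than in Melan-A cells, by mRNA level and by labeling of the surface protein. Of 8 ELR chemokines and CXC receptors tested, 1 rose and 3 fell, or 0 and 1 where at least 10 counts in every library were required. Cxcl1, a ligand of CXCR2, rose from 79.4 and 81.5 CPM to 132 and 127 CPM, 1.61-fold (0.69 ± 0.04, adjusted p = 1.3e-14), against log2 fold changes of 1.70 in B16F0 and -2.25 in Melan-A, both of which differed from B16F10 (adjusted p = 1.4e-12 and 1.6e-09, edgeR). Ackr3, a scavenger receptor of CXCL12, fell 3.42-fold from 10.5 CPM in both libraries to 3.36 and 2.77 CPM. Cxcr3 fell from 0.529 and 0.626 CPM to 0.0825 and 0.137 CPM. Cxcl5 fell from 63 and 72 counts to 38 and 21 counts, and this call was lost under DESeq2, without either untreated library (adjusted p = 0.089 and 0.13, edgeR) and without the second SX-682 library (0.27).

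Interferon-stimulated and antigen-processing genes rose more often than they fell, while checkpoint ligands were split. Of 28 interferon-stimulated and JAK-STAT genes, 17 rose and 4 fell (median 0.31), and of 18 genes of MHC class I and antigen processing, 11 rose and 5 fell (median 0.16). Psmb9, an immunoproteasome subunit, rose 2.74-fold from 2.86 and 2.44 CPM to 7.17 and 7.34 CPM, and Irf1 and Tap1, an interferon factor and a peptide transporter, 1.96-fold and 1.76-fold. Irf7 rose 3.47-fold from 0.744 and 1 CPM to 3.03 and 3.06 CPM, Oasl1 4.77-fold from 0.281 and 0.188 CPM to 0.841 and 1.40 CPM, and Mx2, a dynamin-like GTPase annotated as a polymorphic pseudogene, 10.1-fold from 0.314 and 0.172 CPM to 2.44 and 2.48 CPM. Nlrc5, a transactivator of MHC class I genes, and Tmem173, which encodes STING, fell 1.61-fold and 1.42-fold. Cd274, the checkpoint ligand PD-L1, rose from 9.94 and 9.43 CPM to 35.6 and 37.5 CPM, 3.77-fold (1.91 ± 0.07, adjusted p = 1.3e-19). Of 11 checkpoint ligands tested, 3 rose and 4 fell (median 0.06). Besides Cd274, Cd47 (1.34-fold) and Nectin2 (1.14-fold) rose. Among those that fell were Cd276, Lgals9 and Pvr, by 1.46-fold, 1.45-fold and 1.38-fold. Of 28 cytokines and angiogenic factors, 12 rose and 7 fell. Ccl2, which recruits monocytes, fell from 394 and 398 CPM to 222 and 218 CPM, and Angptl4 rose 2.26-fold from 0.711 and 0.595 CPM.

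Genes downstream of MAPK signaling moved in both directions in B16F10. Of 32 immediate early and feedback genes, 18 fell and 9 rose, with a median log2 fold change of -0.36, while the medians were 0.02 in B16F0 and 0.46 in Melan-A. Against B16F0, the response in B16F10 was lower for 17 of the 32 and higher for 8, beside 14.9% lower and 15.3% higher over all genes, and against Melan-A it was lower for 21 and higher for 4, beside 16% and 17.8%. Egr1, an immediate early factor, fell from 16.1 and 17.5 CPM to 2.69 and 3.54 CPM, 5.42-fold (-2.44 ± 0.08, adjusted p = 5.2e-21). Spry4, a feedback inhibitor of receptor tyrosine kinases, fell 4.41-fold from 7.06 and 6.73 CPM to 1.68 and 1.44 CPM. Dusp4, a phosphatase of ERK, fell 1.93-fold from 188 and 193 CPM to 99.2 and 97.7 CPM, and Fos, a subunit of AP-1, 3.82-fold from 10.1 and 11.7 CPM to 2.62 and 3.09 CPM. The raised members included Klf6, at 215 and 219 CPM and then 604 and 596 CPM (2.76-fold), and Junb, another AP-1 subunit, at 69.0 and 71.6 CPM and then 164 and 170 CPM (2.38-fold). Fosb was raised too, at 1.59-fold, a call lost without the second untreated library (log2 fold change 0.31, adjusted p = 0.43, edgeR), without the first SX-682 library (0.39, 0.36) and in a fit of the B16F10 libraries alone. Egr2 had 13 and 28 counts untreated and 6 and 4 with SX-682, and its call was lost without the second untreated library (-1.34, 0.093).

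Clock genes rose, with 12 of 19 raised and 1 lowered (median 0.54). Nr1d1, the repressor REV-ERBα, rose 6.82-fold from 13.5 and 14.1 CPM to 89.9 and 98.5 CPM (2.77 ± 0.05, adjusted p = 1.2e-26). Nfil3 and Dbp, which repress and activate D-box genes, rose 3.55-fold and 3.50-fold, and 18% of the exonic bases of Dbp overlap a gene on the other strand. Clock, the activator of the loop, was the lowered member, at 74.9 and 80.0 CPM and then 67.1 and 66.5 CPM. The labels do not give the time of harvest, and its part was not tested.

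Among p53 targets, 10 of 21 rose and 5 fell, with a median log2 fold change of 0.06, below the 0.44 of B16F0. Gadd45a, a stress sensor of growth arrest, rose 7.15-fold from 42.7 CPM in both libraries to 301 and 310 CPM, and Sesn2, which inhibits mTORC1, 1.96-fold; both genes are also known ATF4 targets. Tigar, a regulator of glycolysis, fell 2.19-fold from 74.9 and 79.0 CPM to 34.1 and 36.4 CPM. In the BCL2 family, 6 of 14 rose and 5 fell, beside 32.0% raised and 32.9% lowered of protein-coding genes tested above the floor. The BH3-only killers Bbc3 (PUMA), at 15.6 CPM in both untreated libraries and 66.2 and 65.8 CPM with SX-682, and Bmf, at 16.4 and 19.1 CPM and then 46.4 and 47.4 CPM, rose 4.23-fold and 2.64-fold. Bmf changed by 0.18 in B16F0 and 0.26 in Melan-A on the log2 scale (adjusted p of the difference 4.9e-12 and 1.1e-12). Mcl1, a survival protein, fell 1.53-fold from 195 and 201 CPM to 130 and 128 CPM, and the killer Bak1 by the same fold.

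In the NRF2 list, 11 of 20 genes rose and 5 fell, and the members did not move alike. Blvrb, a biliverdin reductase, rose 2.45-fold, while Txnrd1, Gsr and Prdx1, which recycle thiols, fell 1.31-fold, 1.26-fold and 1.20-fold. Of 16 metal and ferroptosis genes, 10 rose and 4 fell. Mt2, a metallothionein, rose 8.98-fold from 6.10 and 5.82 CPM to 50.1 and 57.0 CPM, with 73.5% of its exonic bases overlapping a gene on the other strand. Tfrc, the transferrin receptor, fell 1.80-fold from 571 and 583 CPM to 317 and 324 CPM, and the zinc importer Slc39a10 by the same fold. Of 25 genes of xenobiotic and aldehyde metabolism, 9 rose and 8 fell, shares near those of all protein-coding genes, and Akr1b7 had the largest rise of the list. Of 28 lysosome and autophagy genes, 12 rose and 10 fell, beside 32.0% raised and 32.9% lowered of protein-coding genes tested above the floor. Sqstm1, the autophagy receptor p62, rose 2.61-fold from 896 and 890 CPM to 2310 and 2340 CPM, and Gla, a lysosomal galactosidase, fell 1.68-fold.

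Of 20 tubulins and subunits of the CCT chaperonin, which folds them, 15 fell and 2 rose (median -0.42). Tubb4b fell 2.51-fold from 421 and 410 CPM to 164 and 166 CPM and Tuba1a 2.52-fold from 312 and 309 CPM to 123 and 124 CPM. Cct4 rose 1.30-fold. Of 36 genes of adhesion, matrix and matrix proteases, 14 rose and 12 fell, shares near those of all protein-coding genes. Timp3, an inhibitor of metalloproteases, rose 2.70-fold from 109 and 108 CPM to 285 and 298 CPM, and Cdh11, a mesenchymal cadherin, from 0.0992 and 0.0782 CPM to 0.726 and 0.957 CPM. Itga4, the integrin α4 chain, fell 1.86-fold from 77.6 and 76.8 CPM to 42.0 and 40.8 CPM, while its log2 fold change was 0.14 in B16F0 and 0.37 in Melan-A (adjusted p of the difference 5.8e-15 and 0.014).

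The size of the response was compared with that of B16F0 and Melan-A, gene by gene, by the test of the difference between responses. The response was higher in B16F10 than in B16F0 for 2811 genes (15.3%) and lower for 2740 (14.9%), and higher than in Melan-A for 3266 (17.8%) and lower for 2935 (16%). Of the 1500 genes changed at least 2-fold in B16F10, the change was larger in the same direction than in B16F0 for 555 and smaller for 35, and larger than in Melan-A for 734 and smaller for 8. These 1500 were chosen by their change in B16F10, so the counts are a description. Of the 4681 raised genes, 3064 were also raised in B16F0 and 286 lowered there, and 2735 were raised and 451 lowered in Melan-A.

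Several genes of the stress response had larger responses in B16F10. The log2 fold change of Trib3 was 4.95 in B16F10, 2.62 in B16F0 and 1.56 in Melan-A (adjusted p of the difference 2.1e-23 and 2.0e-28), and that of Nupr1 was 5.28, 2.21 and 1.47 (6.4e-15 and 8.9e-18). Of the 20 stress factors, 12 were higher than in B16F0 and 3 lower, and 15 were higher than in Melan-A and 0 lower. Over all genes, 15.3% were higher than in B16F0 and 17.8% higher than in Melan-A. Other differences went in either direction. Dhrs3, which reduces retinaldehyde, rose 2.84-fold in B16F10 from 5.64 and 4.54 CPM to 14.4 and 14.5 CPM, and its log2 fold change was -1.76 in B16F0 (adjusted p of the difference 2.9e-13). Cdsn had 3.24 in B16F10 and -0.15 in Melan-A (3.5e-25). Arl4c, a small GTPase, rose 8.97-fold from 0.628 and 0.688 CPM to 5.36 and 6.51 CPM, against 0.33 in Melan-A (3.0e-14). Ccn2, the matrix-associated factor CTGF, fell from 20.3 and 19.2 CPM to 11.1 and 11.4 CPM, against 0.94 in B16F0 (5.5e-13), and Ccn1, its relative, rose less, by 0.84 against 2.74 in B16F0 (2.6e-26). Gpc6, a glypican, fell by 0.50 and changed by 0.95 in B16F0 (1.5e-11). Egr1 and Nr4a3, both immediate early factors, changed by -2.44 and -0.75 in B16F10 and by 1.36 and 2.29 in Melan-A (3.0e-24 and 5.9e-23). Genes of sterol synthesis fell further in B16F10, with 18 of 28 lower than in B16F0 and 23 of 28 lower than in Melan-A. The shares over all genes were 14.9% and 16%. Insig1 changed by -1.71, -0.44 and 0.06 in the 3 lines.

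**Figure D5:**
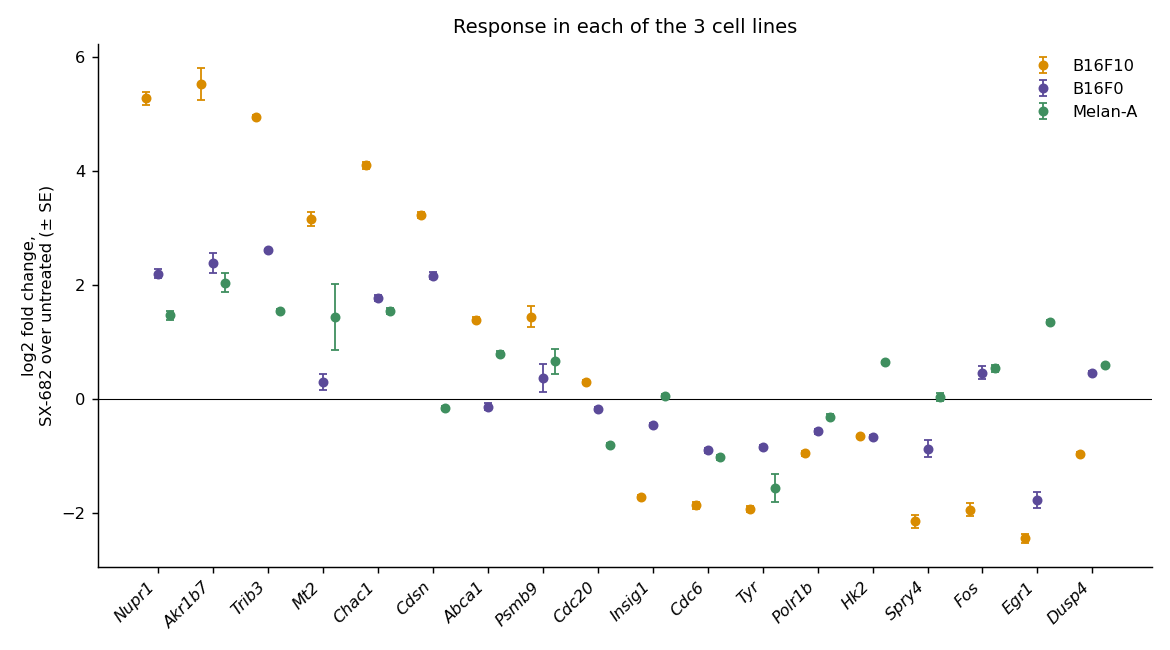
Log2 fold change of SX-682 over untreated, with its SE as bars, in B16F10, B16F0 and Melan-A cells (colors) for 18 named genes (horizontal). Nupr1, Akr1b7, Trib3 and Chac1 are highest in B16F10, Cdc20 lies above 0 in B16F10 alone, and Fos and Dusp4 lie below 0 in B16F10 and above 0 in the other lines.

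Some genes crossed the limit of detection. In 311 genes both untreated libraries were at or under the floor of 3 counts and both SX-682 libraries were over it, and in 277 genes the reverse held. Atp2a3, a calcium pump of the ER, had 2 and 1 counts untreated and 52 and 50 with SX-682, at least 17.8-fold higher, and the unnamed locus Gm19410 had 0 and 0 counts and then 50 and 51, at least 17.6-fold higher. Fbp1, the gluconeogenic fructose bisphosphatase, had 20 and 15 counts untreated and 1 and 2 with SX-682, at least 5.59-fold lower, and Gm4724 had 35 and 40 and then 0 and 0, at least 12-fold lower. Smt3h2-ps was called with 0 and 0 counts untreated and 0 and 82 with SX-682, and its call rests on that library: without it the gene had no count in the remaining libraries and no call (adjusted p = 1, edgeR).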

How the data were processed

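RNA from cultures of B16F10, B16F0 and Melan-A cells was sequenced with 2 libraries in each of 6 groups. The authors deposited raw counts of reads per gene, without normalization, on GRCm38 (mm10) coordinates; the submitters' processing notes name cutadapt, STAR and DESeq2, and the counting program is not given in the sources used here. Groups and replicate numbers were taken from the sample labels. All 12 libraries, with 48876982 to 85322092 counts each, were fitted together with edgeR 4.0.16 in R 4.3.3 (quasi-likelihood F-test, TMM scaling, expression filter, prior count 0.125, no replicate block), with Benjamini-Hochberg adjustment over the 18338 genes tested and a threshold of 0.05. The SE of a log2 fold change was computed from its F value. Responses were compared between lines by contrasts of contrasts. DESeq2 1.42.0 was an alternative, beside other scalings, filters, thresholds, the replicate number as a block, each B16F10 library left out and the B16F10 libraries alone.

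Genes, gene lists and motifs were chosen with earlier results of these data known. Named genes were the 12 largest rises and falls (mean log2 CPM of at least 1, groups apart), up to 3 largest rises and 3 largest falls of each list, the 6 largest differences from each other line in each direction, the 6 highest genes that crossed the floor of 3 counts in each direction, and Cxcr1, Cxcr2, Cxcl1, Tfcp2l1 and Mitf. Promoters of RefSeq (GRCm38.p6) were matched by symbol, and of several starts the one nearest to the deposited gene start was used (2296 genes had several starts, and 1055 starts lay over 1000 bases away). Same-numbered libraries of B16F10 did not deviate together (r = -0.0089), so the numbers were not used as pairs. Genes of the lists that were not matched (Bcl2a1b, Hist2h2aa1, Hist2h3b, Hist2h3c1, Twist1 and Adgre1) were not analysed here.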

Additional observations from a re-analysis of the deposited data

Results flagged for a closer look

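The responses below differed between cell lines by the test of the difference itself (edgeR, adjusted p under 0.05) and by at least 1 on the log2 scale. Each value is the log2 fold change in B16F10 minus that in the other line.

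Against B16F0, the response of B16F10 was higher for Dhrs3 by 3.27, Akr1b7 by 3.15, Nupr1 by 3.07, Mt2 by 2.86, Trib3 by 2.34, Chac1 by 2.33, Rgs9bp by 2.25 and Cdsn by 1.07. Differences below 0 were found for Cxcl1 (-1.01), Rgs2 (-1.01), Spry4 (-1.28), Dusp4 (-1.42), Gpc6 (-1.45), 3010003L21Rik (-1.67), Ccn2 (-1.75), Ccn1 (-1.90) and Fos (-2.40). Of these, Cxcl1, 3010003L21Rik and Ccn1 were raised in B16F10 and the others were lowered there. The rise of 3010003L21Rik in B16F10 lost its call without the second untreated library (log2 fold change 0.58, adjusted p = 0.091, edgeR), and 13.6% of its exonic bases overlap a gene on the other strand. Most exonic bases of Mt2 (73.5%) overlap a gene on the other strand.

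Against Melan-A, the response was higher for Tfcp2l1 by 4.26, Nupr1 by 3.81, Akr1b7 by 3.49, Cdsn by 3.40, Trib3 by 3.39, Rgs9bp by 3.36, Cxcl1 by 2.93, Arl4c by 2.83, Chac1 by 2.56 and Dhrs3 by 2.05. It was lower for Dusp4 (-1.55), Apold1 (-2.10), Spry4 (-2.18), Fos (-2.48), Rgs2 (-2.66), Nr4a3 (-3.04) and Egr1 (-3.80). The value of Tfcp2l1 rests on 0 and 1 counts in the untreated B16F10 libraries and depends on the prior count. Egr1, Fos, Dusp4, Nr4a3 and Rgs2 had log2 fold changes above 0 in Melan-A and below 0 in B16F10.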

How the results depend on the processing

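The numbers of genes raised and lowered in B16F10 cells, and of genes with a higher or lower response than in B16F0 and Melan-A, stayed within 1.5 times their values under every alternative but 1. When a 2-fold change (1 on the log2 scale) was required as well, 872 genes were raised and 628 lowered, 305 and 270 were higher and lower than in B16F0, and 444 and 339 than in Melan-A. DESeq2 called 4575 raised and 4687 lowered genes, and upper-quartile scaling 5079 and 4267. Leaving out each B16F10 library in turn gave 4115 to 4266 raised and 4202 to 4259 lowered genes, 2360 to 2423 higher and 2434 to 2476 lower than in B16F0, and 2721 to 2835 higher and 2728 to 2787 lower than in Melan-A. In the fit with a replicate block, 4666 genes were raised and 4636 lowered, 2801 and 2723 differed from B16F0 and 3253 and 2912 from Melan-A, and no call of a named gene changed. No named gene changed direction under any alternative. Among 239 named results, 134 lost their call under at least 1 alternative, mostly under the fold change limit (117). Of 86 list counts (members raised or lowered), 70 moved under at least 1 alternative, by more than 1.5 times or to or from 0. The fold change limit moved 68 of them, and no other alternative moved more than 5. At this depth, genes at or under 3 counts in both groups (1662 of those tested) carry no fold change.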
